A study of Rattus norvegicus with 10 samples.

Results

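G1 cyclins, cyclin-dependent kinases (CDKs) and CDK inhibitors were followed in the left ventricle of rats, 3 days after genes had been transferred into it. The set comprised Ccnd1, Ccnd2 and Ccnd3 (D-type cyclins), Ccne1 and Ccne2 (E-type cyclins), Cdk2, Cdk4 and Cdk6 (kinases), and Cdkn1b and Cdkn2c (inhibitors). Members were all probe sets whose annotated symbol was exactly 1 of these 10 genes, which gave 16 of the 31099 probe sets on the array. One group, called p38 here, was given MKK3bE, a mutant of the p38-activating kinase MKK3 that is always on, plus wild-type p38α (n = 5). The control group was given LacZ, which encodes bacterial β-galactosidase (n = 5). Body weight was 250 to 300 g, and strain and sex are labelled as Sprague-Dawley and male for 9 of the 10 samples, while 1 LacZ sample is labelled with the weight only. Total RNA was hybridised to 1 Affymetrix Rat Expression Set 230 2.0 array per sample. Separate animals are not stated for the arrays of a group, and p-values therefore cover only the spread between these samples, which may be technical. The sources used here do not say which ventricular cells took up the genes.

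D-type cyclins bind and activate CDK4 and CDK6 when cells receive growth signals, and these complexes begin to phosphorylate the retinoblastoma (RB) family of repressors. E-type cyclins with CDK2 complete that step, E2F transcription factors are freed, and genes of DNA replication are switched on. The protein encoded by Cdkn2c (p18INK4c) binds the CDK4 and CDK6 subunits, whereas that of Cdkn1b (p27KIP1) binds cyclin and CDK complexes and holds cyclin E and CDK2 in check. Most adult ventricular cardiomyocytes have left the cell cycle, and in rat cardiomyocytes p38 activity is known to restrain re-entry.

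Of the members whose promoters are in the RefSeq table of the GRCr8 assembly, Cdk4 and Cdkn2c are shown because probe sets of these genes changed in p38 ventricles. Each sequence runs 5′ to 3′ from 250 bases before the annotated start to 50 bases after it, and capitals mark the E-box CACGTG, a motif bound by MYC and related factors, which reads the same on both strands.
Cdk4: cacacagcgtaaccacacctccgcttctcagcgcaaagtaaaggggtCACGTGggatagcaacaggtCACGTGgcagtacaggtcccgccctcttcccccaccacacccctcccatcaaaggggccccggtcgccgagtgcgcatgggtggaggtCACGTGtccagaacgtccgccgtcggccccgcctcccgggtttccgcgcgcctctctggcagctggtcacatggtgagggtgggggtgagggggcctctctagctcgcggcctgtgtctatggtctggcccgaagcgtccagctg
Cdkn2c: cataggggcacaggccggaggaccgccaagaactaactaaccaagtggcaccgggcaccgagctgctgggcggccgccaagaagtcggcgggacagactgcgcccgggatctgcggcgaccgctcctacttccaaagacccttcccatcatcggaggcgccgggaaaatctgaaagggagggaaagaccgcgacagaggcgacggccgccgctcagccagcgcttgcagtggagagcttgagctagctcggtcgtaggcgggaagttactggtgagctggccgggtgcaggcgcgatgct
The Cdk4 window lies on the plus strand at chr7:64771203-64771502 and the Cdkn2c window on the minus strand at chr5:129644842-129645141. The table held promoters for 6 of the 10 genes, namely Ccnd3, Ccne1, Cdk2, Cdk4, Cdkn1b and Cdkn2c. None of the 6 windows held the E2F motifs TTTCGCGC or TTTGGCGC, the cyclic AMP response element TGACGTCA or the AP-1 motif TGACTCA on either strand, in searches without mismatches. Among all 33469 promoters of the table these motifs occurred in 0.326%, 0.493%, 1.83% and 4.63%. The E-box was searched after those motifs gave no match. It occurred 3 times in the Cdk4 window, 203, 183 and 95 bases before the start, and in none of the other 5. At least 1 E-box occurred in 6.42% of all promoters, and 19 promoters (0.0568%) held 3 or more. These counts describe letters in the sequence and were not tested as binding sites.

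Signals are given in array units after quantile normalization between arrays, with log2 fold changes on the log2(signal + 16) scale and standard errors of the limma fit. A probe set is said to have risen or fallen where its two-sided p, adjusted by Benjamini-Hochberg over 18625 tested probe sets, was below 0.05. Probe sets of different genes bind RNA with different strength, so levels were not compared between genes. Scaling mattered, because the array medians of the deposited signals ran from 60.3 to 88.05 and the ratio of the highest to the lowest 2% trimmed mean of an array was 1.48. The experiment files gave a fluidics status of Completed for p38 4, p38 5 and LacZ 1 to 4 and of Started for p38 1 to 3 and LacZ 5. The first principal component of the tested probe sets carried 48.7% of the variance. On it p38 4 and p38 5 lay at 47.0 and 45.0 and the other 3 p38 arrays between -6.47 and 20.8. LacZ 5 lay at -8.12, apart from LacZ 1 to 4 at -26.6 to -24.5. Rat probe sets of both delivered kinases did not pass, at log2 fold changes of 0.11 ± 0.07 for Map2k3 (adjusted p = 0.329) and -0.02 ± 0.07 for Mapk14 (adjusted p = 0.836), but these need not measure the delivered cDNA.

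In p38 ventricles, Cdk4, 1 of 3 Ccnd1 probe sets and 1 of 2 Cdkn2c probe sets rose by 1.23-fold to 1.34-fold, and the other Cdkn2c probe set fell to 0.664-fold. Of the 16 member probe sets, 13 of 9 genes were bright enough to be tested, while the Cdk6 probe set and 1 probe set each of Ccne2 and Cdkn1b were not. Among the 13 tested, 3 rose (23.1%, against 8.60% of all tested probe sets), 1 fell (7.69%, against 7.40%) and 9 did not pass. Their median log2 fold change was 0.16, against -0.03 over all tested probe sets, and 11 of 13 were above 0. In 2 of 13 every p38 array lay above every LacZ array (5.62% of all tested probe sets) and in 1 every p38 array lay below (5.43%). With the signals as deposited none of the 13 passed in limma. At an unadjusted p under 0.05, 5 were higher and 1 lower there, but the share of all tested probe sets at that cut was not taken. The median log2 fold change of all tested probe sets was then 0.11, and 956 rose against 87 that fell. With 1 probe set per gene, the brightest, 2 of 9 genes rose, against 11.6% of 10596 named genes. These were Cdk4 and Cdkn2c, and the latter counts as a rise only because its dimmer probe set, which fell, was left aside. Because the tissue is a mixture of cells, fewer cells of a type and less RNA per cell cannot be told apart in any of these values.

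**Figure D1:**
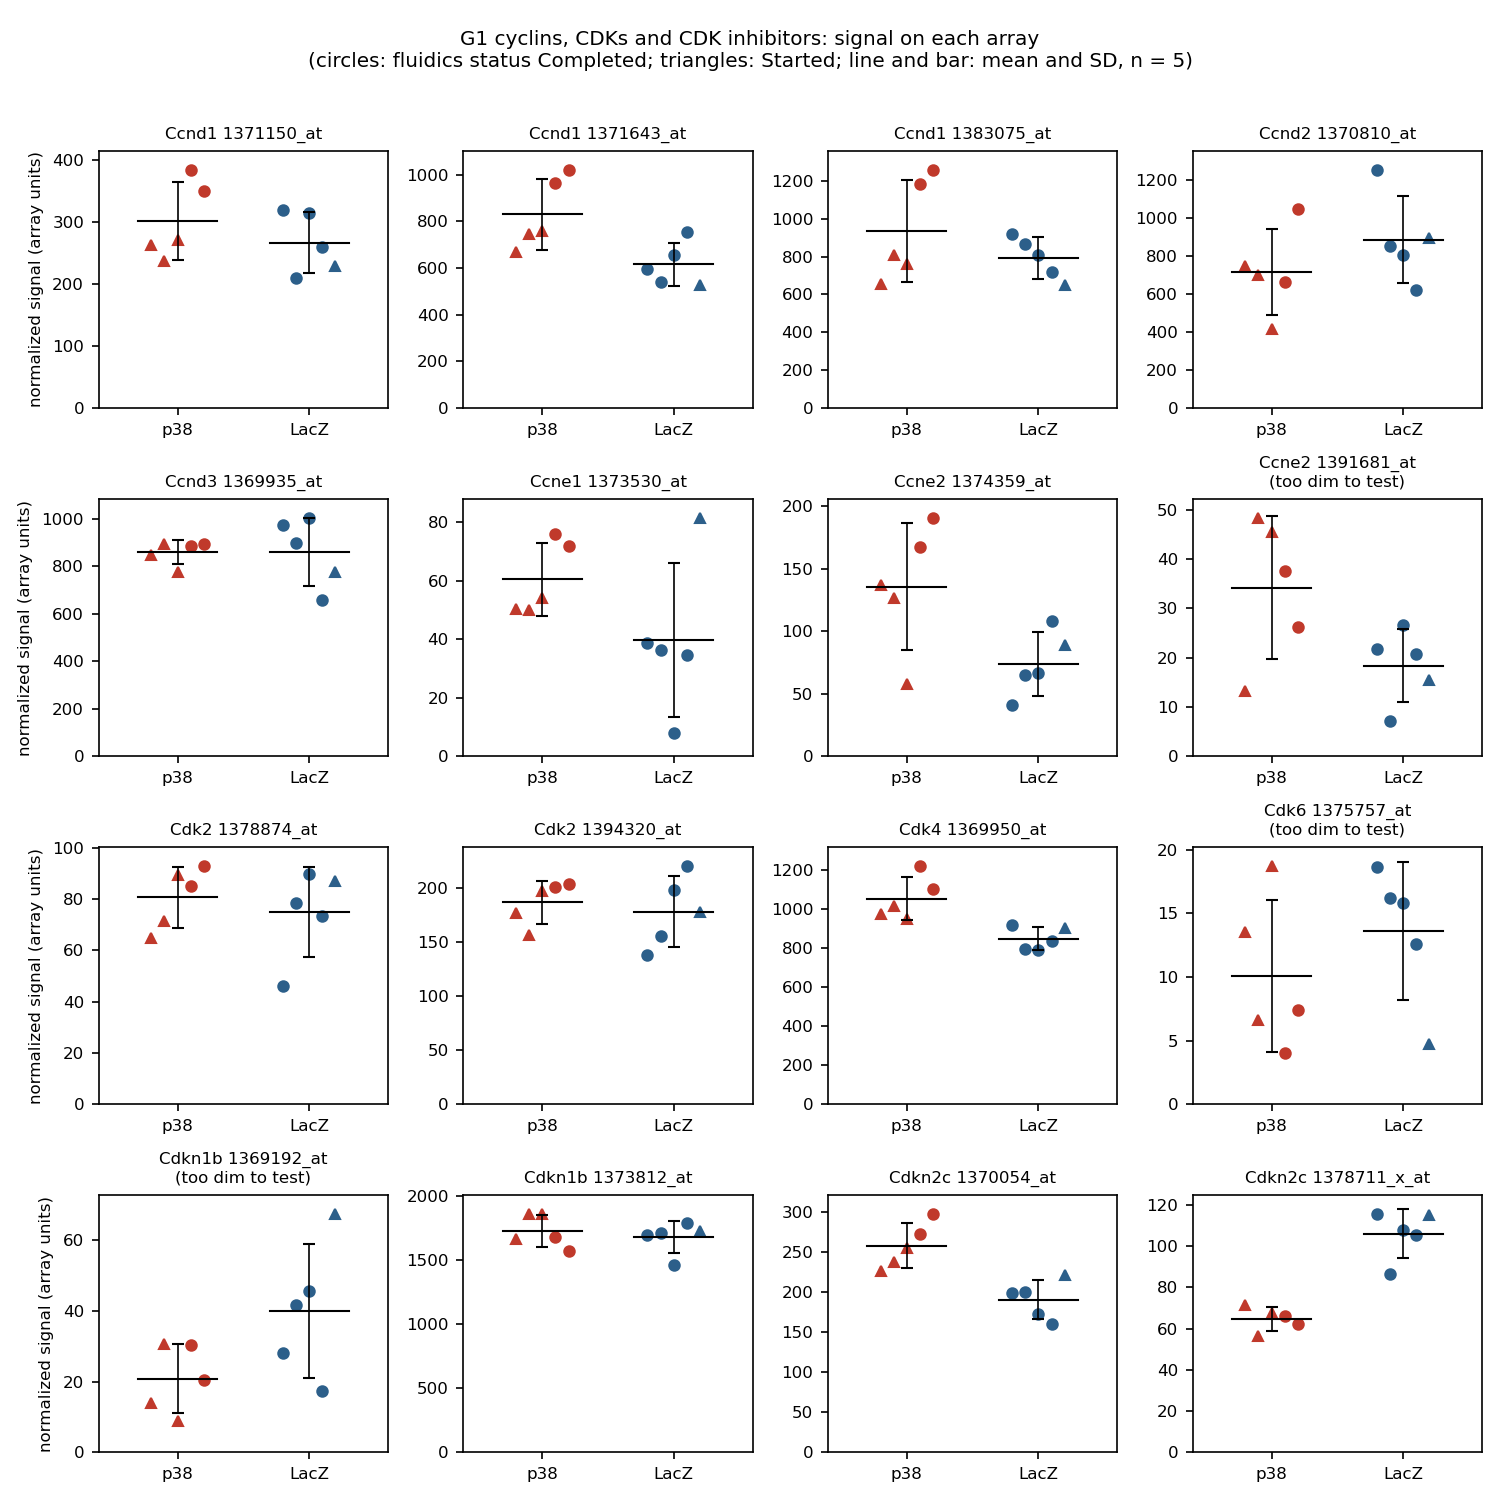
Normalized signal (array units, axis from 0) of the 16 member probe sets on each array, with p38 left of LacZ in every panel, circles for fluidics status Completed, triangles for Started, and lines and bars for mean and SD (n = 5). The groups separate fully for Cdk4 and for both Cdkn2c probe sets, in opposite directions for that gene's pair, and overlap elsewhere.

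Ccnd1, the cyclin most closely tied to growth factor signals, was measured by 3 probe sets. At 1371643_at the signals were 668.5, 746.5, 756.6, 963.3 and 1020.4 in p38 1 to 5, against 597.3, 540.1, 657.1, 753.7 and 527.2 in LacZ 1 to 5. Of these, 3 p38 arrays exceeded all LacZ arrays, while LacZ 4 overlapped the lower p38 values. The means were 831.1 ± 152.0 in p38 and 615.1 ± 93.1 in LacZ (SD, n = 5 each), a log2 fold change of 0.42 ± 0.13 (95% interval 0.13 to 0.70, limma adjusted p = 0.0471). This call lay close to the threshold and was lost without any 1 of LacZ 1, 2, 3 and 5 and p38 2, 4 and 5 (adjusted p up to 0.119).

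The other Ccnd1 probe sets did not pass. The brightest, 1383075_at, read 656.0, 809.7, 761.3, 1182.2 and 1258.4 in p38 1 to 5, against 918.7, 868.2, 808.7, 719.0 and 650.6 in LacZ 1 to 5. The p38 4 and p38 5 arrays stood above every LacZ array, and the other p38 arrays lay within the LacZ range. Its log2 fold change was 0.20 ± 0.17 (95% interval -0.17 to 0.56, limma adjusted p = 0.441), and that of 1371150_at was 0.16 ± 0.15 (adjusted p = 0.474), again with p38 4 and p38 5 alone above all LacZ arrays. All 3 probe sets were therefore highest on the same 2 arrays.

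Ccnd2, a D-type cyclin that follicle-stimulating hormone induces in rat ovary, read 751.6, 699.6, 415.7, 664.4 and 1047.6 in p38 1 to 5, against 1255.9, 852.6, 808.7, 624.7 and 898.6 in LacZ 1 to 5. The groups overlapped widely, with p38 3 lowest and LacZ 1 highest of the 10 arrays. The log2 fold change was -0.33 ± 0.21 with a 95% interval of -0.79 to 0.13 (limma adjusted p = 0.301). Ccnd3, the remaining D-type cyclin, ran from 774.9 to 894.9 in p38 and from 658.3 to 1002.4 in LacZ. Its log2 fold change was 0.01 ± 0.11 (95% interval -0.23 to 0.25, limma adjusted p = 0.957), and 0.18 ± 0.15 with the signals as deposited.

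Neither E-type cyclin passed, although their log2 fold changes were the 2 largest above 0 among the 13. Ccne2, whose transcription depends on E2F, read 136.8, 126.9, 57.5, 167.3 and 190.8 in p38 1 to 5, against 40.9, 65.4, 66.9, 108.2 and 89.4 in LacZ 1 to 5. The p38 3 array lay below 4 of the LacZ arrays, and the other 4 p38 arrays exceeded every LacZ array. The log2 fold change of 0.72 ± 0.27 (95% interval 0.15 to 1.29) had an unadjusted p of 0.0179 and a limma adjusted p of 0.0798. It passed without p38 3 (log2 fold change 0.96, adjusted p = 0.0103), with array weights (0.73, adjusted p = 0.0271), with the replicate number as a block (0.72, adjusted p = 0.0408) and when the gene's probe sets were averaged (0.62, adjusted p = 0.0309). The other Ccne2 probe set was too dim to be tested, at 13.3 to 48.3 in p38 and 7.1 to 26.6 in LacZ.

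Ccne1, the companion E-type cyclin, read 50.4, 49.9, 53.9, 75.8 and 71.9 in p38 1 to 5, against 38.6, 36.4, 7.9, 34.6 and 81.4 in LacZ 1 to 5. LacZ 5 was the highest of all 10 arrays, and the other LacZ arrays were below every p38 array and below the signal of 39.6 at which probe sets were left out as dim, so that the gene was tested only through the other 6 arrays. The log2 fold change was 0.57 ± 0.29 (95% interval -0.05 to 1.19, limma adjusted p = 0.181). Without LacZ 5 it was 0.81 and passed (adjusted p = 0.0465).

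Cdk4, the kinase partner of D-type cyclins, gave the clearest difference among the kinases. It read 975.5, 1018.0, 948.9, 1221.6 and 1106.1 in p38 1 to 5, against 917.6, 798.8, 789.5, 838.0 and 902.8 in LacZ 1 to 5. Every p38 array lay above every LacZ array after normalization, with p38 3 and LacZ 1 nearest to each other. The means were 1054.0 ± 111.0 in p38 and 849.3 ± 58.7 in LacZ (SD, n = 5 each), a log2 fold change of 0.30 ± 0.09 (95% interval 0.12 to 0.49, limma adjusted p = 0.0343). As deposited, p38 1 read 799.9, below LacZ 1 at 935.6 and LacZ 5 at 942.6, and the log2 fold change of 0.47 then had an adjusted p of 0.0863. The call was also lost when LacZ 1, 2, 3 or 4 or p38 2, 4 or 5 was left out (adjusted p from 0.0509 to 0.0882), with log2 fold changes of 0.25 to 0.33 there.

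Cdk2, the partner of E-type cyclins, did not pass at either probe set. Its brightest probe set ran from 157.0 to 203.4 in p38 and from 138.0 to 220.4 in LacZ, a log2 fold change of 0.08 ± 0.13 (95% interval -0.20 to 0.35, limma adjusted p = 0.711). The other gave 0.10 ± 0.16 (adjusted p = 0.677), with the p38 values inside or just above the LacZ range. Cdk6, the second partner of D-type cyclins, was too dim to be tested, at 4.0 to 18.7 in p38 and 4.7 to 18.6 in LacZ.

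Cdkn2c, the inhibitor of CDK4 and CDK6, was measured by a pair of probe sets that moved in opposite directions. The brighter, 1370054_at, read 226.4, 238.2, 254.8, 273.2 and 297.4 in p38 1 to 5, against 199.5, 200.4, 173.4, 159.7 and 221.0 in LacZ 1 to 5. Every p38 array lay above every LacZ array after normalization, LacZ 5 being nearest to the p38 values. As deposited, p38 1 read 181.2, below LacZ 1 at 205.3 and LacZ 5 at 227.8. Its means were 258.0 ± 28.2 in p38 and 190.8 ± 24.2 in LacZ (SD, n = 5 each), a log2 fold change of 0.41 ± 0.11 (95% interval 0.17 to 0.64, limma adjusted p = 0.0266). The call was lost without LacZ 3, LacZ 4, p38 4 or p38 5 (adjusted p up to 0.0687).

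The dimmer Cdkn2c probe set, 1378711_x_at, read 71.5, 56.3, 67.8, 66.3 and 62.4 in p38 1 to 5, against 115.5, 86.3, 107.8, 105.3 and 115.3 in LacZ 1 to 5. Every p38 array lay below every LacZ array, also with the signals as deposited. The means were 64.9 ± 5.81 in p38 and 106.0 ± 11.9 in LacZ (SD, n = 5 each), a log2 fold change of -0.59 ± 0.11 (95% interval -0.84 to -0.35, limma adjusted p = 0.0100), the smallest adjusted p of any member. It passed with each array left out in turn (adjusted p from 0.00505 to 0.0325). This probe set was designed from an expressed sequence tag and its name carries the maker's mark for probes that also match other transcripts, whereas 1370054_at was designed from a reference mRNA. Averaged, the pair gave a log2 fold change of -0.09 that did not pass (adjusted p = 0.503), so the direction of Cdkn2c depended on the probe set, and which transcripts each one measured was not tested.

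Cdkn1b, the inhibitor of cyclin E and CDK2 complexes, read 1666.2, 1854.0, 1855.7, 1679.0 and 1572.2 in p38 1 to 5, against 1696.9, 1709.8, 1462.9, 1789.5 and 1723.0 in LacZ 1 to 5. The groups overlapped, and the lowest of the 10 values belonged to LacZ 3. The log2 fold change of 0.04 ± 0.08 had the narrowest 95% interval of the members, -0.12 to 0.21 (limma adjusted p = 0.739). Its other probe set was too dim to be tested, at 8.8 to 30.6 in p38 and 17.5 to 67.4 in LacZ.

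**Figure D2:**
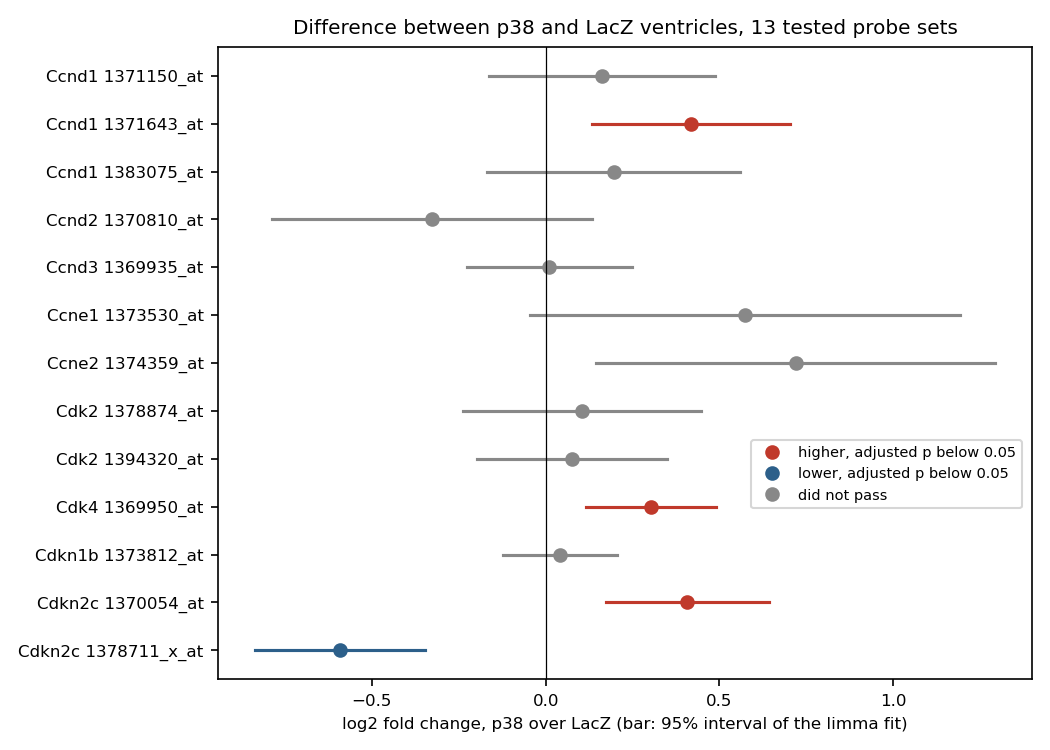
Log2 fold change (p38 over LacZ) of the 13 tested member probe sets, with bars for the 95% interval of the limma fit and colour for the call. Cdk4, 1 Ccnd1 probe set and 1 Cdkn2c probe set lie above 0, the other Cdkn2c probe set lies below 0, and the E-type cyclins have the widest intervals, up to 1.29.

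Members of one role were set against each other as log2 ratios of their brightest probe sets within each array, since a ratio does not carry the array's scaling factor. Across 8 pairs tested by an exact two-sided permutation test over 252 splits (smallest possible p = 0.00794), none passed after adjustment over the pairs. The ratio of Cdkn2c to Cdkn1b was 0.37 higher in p38 (exact p = 0.0159, adjusted p = 0.127), with 4 of 5 p38 arrays above all LacZ arrays. It holds for the brighter Cdkn2c probe set only. No ratio was taken with the dimmer one, which fell (log2 fold change -0.59). The ratio of Ccnd1 to Ccnd2 was 0.52 higher (exact p = 0.0714, adjusted p = 0.190), that of Cdk4 to Cdk2 was 0.23 higher (adjusted p = 0.267), and that of Ccne1 to Ccne2 differed by -0.15 (adjusted p = 0.738). The remaining pairs had adjusted p-values of 0.190 to 0.390.

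The rises were uneven among the p38 arrays. Averaged over the 13 tested probe sets, the deviation from the LacZ mean was 0.05, 0.06 and -0.01 in p38 1 to 3 and 0.32 and 0.38 in p38 4 and p38 5, on the log2 scale. The highest of the 10 values fell on p38 5 for 5 probe sets and on p38 4 for 2. The like share over all tested probe sets was not taken, and p38 4 and p38 5 also lay farthest out on their first principal component (47.0 and 45.0). Both of these arrays had the fluidics status Completed, and the other p38 arrays had Started.

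**Figure D3:**
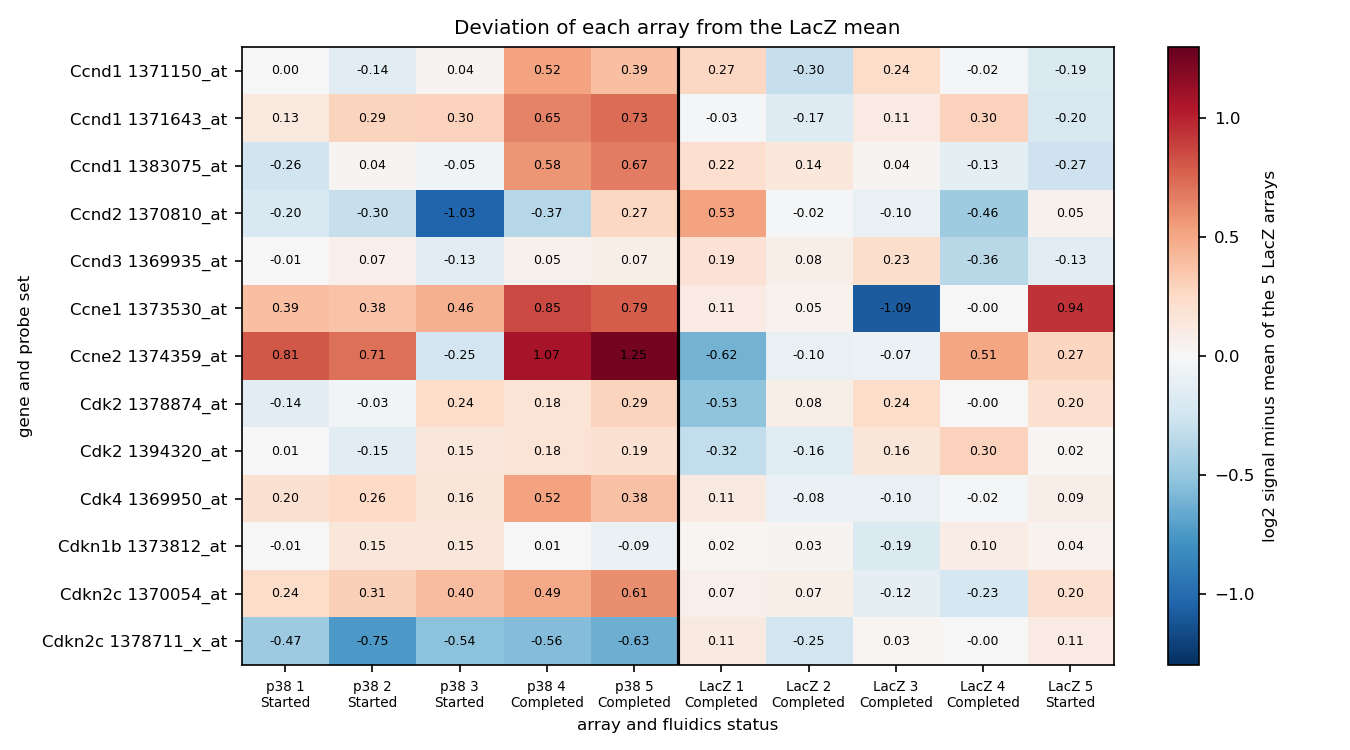
Deviation of each array from the mean of the 5 LacZ arrays on the log2 scale for the 13 tested probe sets, with the p38 arrays left of the LacZ arrays and fluidics status under each array. The p38 4 and p38 5 columns carry the largest deviations above 0, 1.07 and 1.25 for Ccne2, and Ccne1 is raised on LacZ 5 by 0.94.

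Within the 6 Completed arrays (2 p38 against 4 LacZ), 6 of the 13 member probe sets rose and 1 fell. Of all 18625 tested probe sets, 3084 rose and 3638 fell there, against 1601 and 1378 with all arrays. Ccne2 rose by 1.23 (limma adjusted p = 0.00316), Ccne1 by 1.06 (adjusted p = 0.0276), Ccnd1 by 0.64 and 0.55 at 1371643_at and 1383075_at, Cdkn2c by 0.60 at 1370054_at and Cdk4 by 0.47 (adjusted p = 0.00339) on the log2 scale. For Ccne1 all 4 of these LacZ arrays were below the dim limit of 39.6, so that it was tested only through other arrays. Within the 4 Started arrays (3 p38 against 1 LacZ) no member passed in limma, where the single LacZ array has no spread of its own. The values there were 0.15 for Ccne2, -0.53 for Ccne1, 0.44 and 0.18 for these Ccnd1 probe sets, 0.11 for Cdkn2c at 1370054_at and 0.12 for Cdk4. The dimmer Cdkn2c probe set had -0.57 in Completed and -0.70 in Started arrays. With a single LacZ array among the Started ones, which stood apart from the other LacZ arrays as shown above, the sizes of change were not compared between the statuses. With fluidics status as a block, Ccnd1 1383075_at passed as well (log2 fold change 0.42, adjusted p = 0.0201).

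Among the other CDK inhibitors, Cdkn1a and Cdkn3 rose. Cdkn1a, which encodes the stress-induced inhibitor p21, read 1087.0, 1406.6, 1165.9, 1634.1 and 1737.8 in p38 1 to 5, against 901.0, 833.0, 918.7, 712.6 and 763.6 in LacZ 1 to 5. The groups did not overlap, and the log2 fold change was 0.74 ± 0.13 (1.67-fold, limma adjusted p = 0.00818). A dimmer Cdkn1a probe set gave 1.97 (adjusted p = 0.00774), and the average of both gave 1.36 (adjusted p = 0.00846). Cdkn3, whose product is a phosphatase that removes the activating phosphate of CDKs, rose 3.12-fold (adjusted p = 0.00993). Of the 6 inhibitor genes listed, 4 were tested, 2 rose and none fell, against 11.6% and 6.23% of all named genes. Cdkn1c did not pass, nor did either probe set of Cdkn2d, whose log2 fold changes of -0.24 (limma adjusted p = 0.109) and 0.33 (adjusted p = 0.0899) differed in sign, and Cdkn2a and Cdkn2b were too dim.

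Downstream of the members, 5 of 10 tested RB and E2F family genes rose and 1 fell, against 11.6% and 6.23% of all named genes. E2f1, an activating E2F, read 61.2, 99.3, 64.8, 101.6 and 114.3 in p38 1 to 5, against 25.3, 33.3, 17.2, 48.4 and 69.6 in LacZ 1 to 5. LacZ 5 overlapped the lowest p38 arrays, and the log2 fold change was 0.98 ± 0.25 (limma adjusted p = 0.0215), or 0.58 with a pseudocount of 64. LacZ 1 to 3 were below the dim limit of 39.6, so that E2f1 was tested only through its p38 level. This call was lost when LacZ 1, LacZ 3, p38 2, p38 4 or p38 5 was left out (adjusted p up to 0.0588). Rbl1, which encodes the RB relative p107 and is itself an E2F target, rose 2.36-fold (adjusted p = 0.0179), and E2f5, a repressor E2F, was higher by 0.72 on the log2 scale (adjusted p = 0.0163). E2f2 and Tfdp1 made up the 5. Tfdp2, an E2F dimerisation partner, fell by 0.61 on the log2 scale (adjusted p = 0.0141), but neither of its other probe sets passed, nor did it with the signals as deposited (adjusted p = 0.0799). Rb1 itself did not pass, at -0.20 ± 0.11 on the log2 scale (adjusted p = 0.212). Leaving out LacZ 1, LacZ 3, p38 4 or p38 5 gave 2 rises, leaving out p38 2 gave 3, and 2 were found with the dimmest 60% of probe sets left out, where fewer genes were tested.

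Replication genes under E2F control and the S, G2 and M phase genes had higher median log2 fold changes than the G1 members, a difference that was not tested. Of 19 tested replication genes 12 rose and none fell, against 11.6% and 6.23% of all named genes. Their median log2 fold change was 0.46, and all 19 values were above 0. Mcm6, a subunit of the replicative helicase, rose 2.58-fold (limma adjusted p = 0.00774), Mcm3, another subunit, had a log2 fold change of 1.17, Prim1 (DNA primase) had 0.71 and Pcna (the polymerase clamp) 0.46. The number of rises was 4 to 7 when LacZ 1, 2, 3 or 4 or p38 2, 4 or 5 was left out, 7 without a filter on dim probe sets and 5 with the signals as deposited. Of 9 tested S, G2 and M genes 8 rose, against the same 11.6% of named genes, with a median of 1.36. Cyclin A2 (Ccna2) read 124.1, 190.4, 99.1, 292.6 and 292.0 in p38 1 to 5, against 16.4, 14.8, 25.9, 35.5 and 104.5 in LacZ 1 to 5. LacZ 5 stood far above the other LacZ arrays and above p38 3. The log2 fold change was 2.05 ± 0.37 (adjusted p = 0.00858), or 2.57 with a pseudocount of 1 and 1.34 with one of 64. LacZ 1 to 4 were below the dim limit of 39.6, and the gene was bright enough to be tested only through its p38 level. The mitotic kinase gene Cdk1 rose 3.10-fold (adjusted p = 0.0100), Mki67, a marker of cycling cells, 2.77-fold (adjusted p = 0.0179), Ccnb2 had a log2 fold change of 1.53 and the checkpoint kinase gene Bub1 one of 1.33.

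The mean of the S, G2 and M list lay above the mean of LacZ 1 to 4 by 0.92, 1.65, 1.10, 2.15 and 2.22 in p38 1 to 5 and by 0.94 in LacZ 5, on the log2 scale. LacZ 5 thus lay just above the lowest p38 array on these genes. The replication list gave 0.26, 0.67, 0.42, 0.91 and 0.89 in p38 1 to 5 and 0.33 in LacZ 5.

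**Figure D4:**
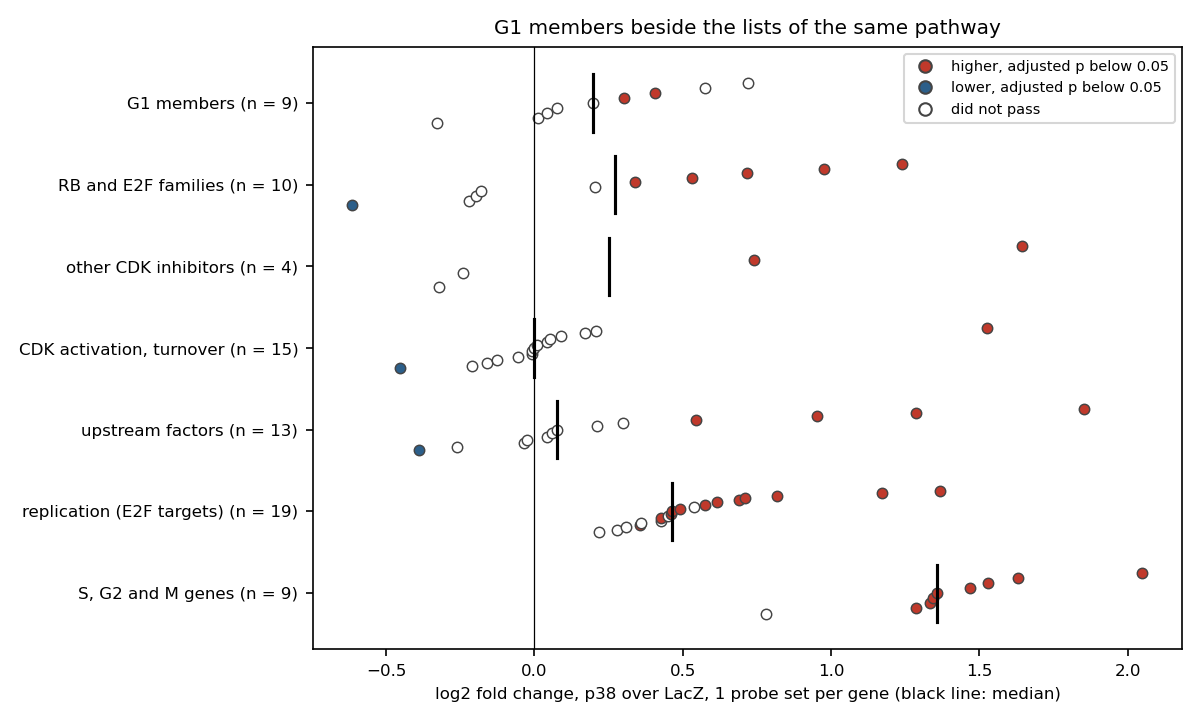
Log2 fold change (p38 over LacZ) of every tested gene of each list, 1 probe set per gene, with the median as a black line, filled points for genes that passed and open points for those that did not. The median of the 9 G1 members, 0.20, lies to the left of those of the replication genes (0.46) and of the S, G2 and M genes (1.36).

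Among regulators of CDK activity and cyclin turnover 1 of 15 tested genes rose and 1 fell, against 11.6% and 6.23% of all named genes. These were Cks2, a small CDK-binding subunit, 2.88-fold higher (limma adjusted p = 0.0100), and the phosphatase gene Cdc25b, lower by a log2 fold change of -0.45 (adjusted p = 0.0483). The Cdc25b call passed in 7 of 25 alternatives. It was lost without any 1 of the 5 LacZ arrays, p38 3, p38 4 or p38 5 (adjusted p up to 0.117), with the replicate number as a block (0.0507) and without normalization between arrays (0.381). Among upstream factors that feed into D-type cyclins or the inhibitors, 4 of 13 rose and 1 fell, against the same shares of named genes. Fos, an AP-1 subunit, gave a log2 fold change of 1.85 (adjusted p = 0.00802), or 0.75 when its probe sets were averaged, Egr1 gave 0.95 and Id3 0.55. Foxo3, a factor that drives Cdkn1b transcription, fell to 0.763-fold (adjusted p = 0.0135), with all p38 arrays below all LacZ arrays, although neither its averaged probe sets (adjusted p = 0.373) nor the signals as deposited (adjusted p = 0.361) passed. Myc was named here after its value was seen, because its product binds the E-box motif, which is marked above for Cdk4. A link between these genes was not tested. Myc read 67.6, 310.2, 144.7, 389.5 and 473.6 in p38 1 to 5, against 101.2, 57.3, 65.0, 84.7 and 127.2 in LacZ 1 to 5. The p38 1 array lay within the LacZ range, and the log2 fold change of 1.29 ± 0.40 had an adjusted p of 0.0453. Its call was lost when LacZ 1, 2, 3 or 4 or p38 2, 4 or 5 was left out (adjusted p up to 0.116).

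Cell type markers were read beside the members, and over all named genes 11.6% rose and 6.23% fell. Of 8 tested macrophage markers 5 rose (Cd68, Lyz2, Adgre1, Fcgr2b and Lgals3). Cd163, Csf1r and Mrc1 did not pass, at log2 fold changes of -0.23, 0.44 and 0.51. The summed signal of all 9 ran from 9867 to 18801 in p38 and from 7576 to 10993 in LacZ. On LacZ 5 the mean of the tested macrophage markers was 0.40 above the LacZ mean, on the log2 scale. T and NK cell markers gave 1 rise of 3 (Cd8a). The LacZ mean of Cd8a, 5.78 on the log2 scale, was below the dim limit of 5.80, so that it was tested only through its p38 level. Smooth muscle markers gave 2 rises and 1 fall of 4. Neither the 6 fibroblast markers nor the 1 tested neutrophil marker passed, 1 of 4 endothelial markers (Kdr) and 2 of 3 erythroid markers fell, and the B cell markers on the array were too dim to be tested. Cardiomyocyte markers were bright in both groups, with summed signals of 79737 to 84183 in p38 and 84136 to 85113 in LacZ, and Ryr2 and Mybpc3 of 7 fell. The 3 atrial markers did not pass. The part of other cells in the changes of Ccnd1, Cdk4, Cdkn2c or the downstream genes was not tested.

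The genes whose log2 values followed a called member most closely over the 10 arrays were read from 10587 other named genes, as a description that includes the group difference. For Cdk4 these were Trip6 (Pearson r = 0.985), Rbm3 (0.977), Pgrmc1 (0.974), Serpinb9 (0.973) and Fgd2 (0.972). Cdkn2c at 1370054_at was followed by Fxyd2, Alcam, Ch25h, Mydgf and Tmem144 at r = 0.959 to 0.963. The dimmer Cdkn2c probe set was followed by Raver1, Nfe2l1, Cd36, Mn1 and Ntn1 at r = 0.932 to 0.960. Because this gene's probe sets separated the groups in opposite directions, no gene could closely follow both.

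**Figure D5:**
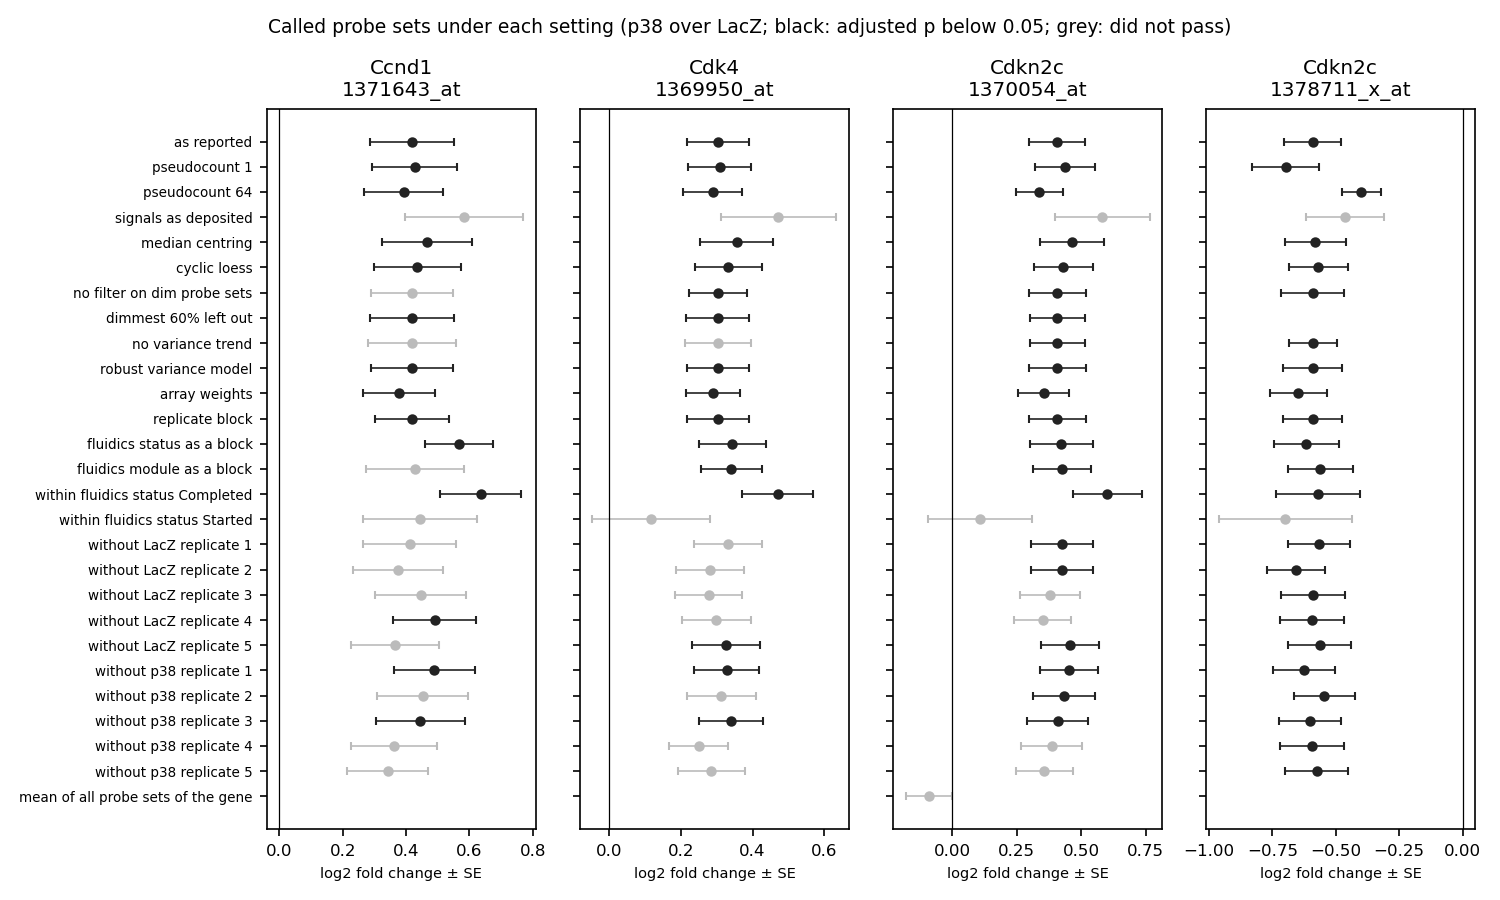
Log2 fold change ± SE (p38 over LacZ) of the called member probe sets under each processing setting, black where the adjusted p was below 0.05 and grey where it was not. The dimmer Cdkn2c probe set stays between -0.70 and -0.40 and passes in all settings shown but 2, while Ccnd1, Cdk4 and the brighter Cdkn2c probe set turn grey when several single arrays are left out.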

How the data were processed

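RNA of 5 p38 and 5 LacZ samples of left ventricle was measured on 1 array each, with groups and replicate numbers read from the titles. The deposited table has 1 linear intensity per probe set and array. The authors made these intensity values with GCOS 1.2, per the submitters' processing notes, which name it for 9 of the 10 samples, and the sources used here give no scaling target. Fluidics status and module were read, per the file headers, from each array's experiment file.

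The 57 control probe sets were left out, 16 was added to each signal before log2, so that changes of dim probe sets are understated, and arrays were quantile normalized. The dimmest 40% of the other 31042 probe sets by mean log2 value over all arrays were not tested, which left 18625. The p38 and LacZ arrays were compared by a two-sided test in limma 3.58.1 (R 4.3.3; lmFit, eBayes with intensity trend) without covariates, and p-values were adjusted by Benjamini-Hochberg over all 18625. The steps were tested on simulated data. The 5 arrays per group limit precision, and the median 95% interval reached 0.28 to either side.

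Probe sets were named where the platform annotation gave 1 gene (20832 of 31099, 436 having several and 9831 none), and 20764 of these had Entrez identifiers in the RefSeq table of GRCr8. For lists and ratios the brightest probe set stood for a gene, also where it was too dim to be tested, as for Cdk6. The members, the gene lists and the tests were chosen with earlier results of these data known. Named genes were all members, Cdkn1a, Rb1, E2f1, Ccna2, Cdk1, Mki67, up to 4 list genes with the smallest p among those that passed, and the 5 genes of most similar pattern for the 3 called member probe sets with the smallest p. Other list genes and markers are named only to identify small counts. Alternatives comprised other pseudocounts, scalings, filters, variance models, array weights, blocks, single arrays left out and averaged probe sets.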

Additional observations from a re-analysis of the deposited data

Results flagged for a closer look

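For Cdkn1b at 1373812_at, LacZ 3 read 1462.9, while the other LacZ arrays read 1696.9 to 1789.5. Its distance to the nearest array was 0.736 of the range of the group, above the critical value of 0.710 of Dixon's test for 5 samples. This was 1 of 32 groups of 5 signals checked, where chance gives about 1 in 20. The member did not pass the comparison with or without that array.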

How the results depend on the processing

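Apart from the calls lost with single arrays left out, given with each gene above, member signs and calls not named here were kept under the alternatives run. With the signals as deposited, 956 probe sets rose and 87 fell over the whole array, so that 91.7% of the calls were higher, against 53.7% as reported, 67.9% with median centring (777 lower) and 58.8% with cyclic loess. The median of all probe sets was then 0.11, and 0 members rose or fell, in 0 genes, with Ccnd1 1371643_at at 0.58 (adjusted p = 0.0700), Cdk4 at 0.47, Cdkn2c at 0.58 (0.0669) and its dimmer probe set at -0.46 (0.0760). Without a filter 865 fell and Ccnd1 had an adjusted p of 0.0721 (log2 fold change 0.42). With the dimmest 60% left out 0 members fell, because the dimmer Cdkn2c probe set was no longer tested. Without a variance trend 1 member, in 1 gene, rose, with Ccnd1 at 0.42 (adjusted p = 0.0639) and Cdk4 at 0.30 (0.0516). Array weights gave 2618 higher and 2577 lower, Ccne2 at 0.73 and Cdk2 1394320_at at -0.00377. Fluidics module as a block left Ccnd1 at 0.43 (adjusted p = 0.0918), and status as a block gave Ccnd1 1383075_at 0.42 and Cdkn1b -0.000178. Within Completed arrays 3084 rose and 3638 fell, with 6 members in 5 genes higher, including Ccnd1 1383075_at at 0.55, Ccne1 at 1.06 and Ccne2 at 1.23, and Cdkn1b at -0.031. Within Started arrays 2 rose and 3 fell and 0 members passed, with Ccnd1 at 0.44, Ccne1 at -0.53, Cdk2 at -0.18 and -0.013, Cdk4 at 0.12 and Cdkn2c at 0.11 and -0.70. Averaging probe sets gave Ccne2 0.62, Cdkn1b -0.27 (adjusted p = 0.164) and Cdkn2c -0.092. With a pseudocount of 1, the ratio of Ccne1 to Ccne2 was 0.043. The cause was not tested for any of these.

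With each array left out in turn, 698 to 2317 probe sets rose, 532 to 2151 fell, and 0 to 4 members rose (0 without LacZ 3, p38 4 or p38 5, 1 without LacZ 1, 2 or 4 or p38 2) while 1 fell each time. At the brightest probe set of each gene, 0 to 3 genes rose. Ccnd1 1371643_at ran from 0.34 to 0.49, Ccnd3 from -0.079 to 0.069, Ccne1 from 0.31 to 0.81, Ccne2 from 0.57 to 0.96, Cdk2 from -0.027 to 0.17 and from -0.0034 to 0.15, Cdk4 from 0.25 to 0.34, Cdkn1b from -0.0059 to 0.074, Cdkn2c from 0.35 to 0.46 and from -0.66 to -0.55, and the ratio of Ccne1 to Ccne2 from -0.40 to 0.035.

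Replicate numbers of the p38 and LacZ arrays shared no stated source. Deviations of same-numbered arrays from their group means correlated at 0.08, 0.10, 0.04, -0.13 and 0.28, and 4 of 10 arrays correlated best with their own number. With the replicate block 1670 probe sets rose and 1410 fell, and Ccne2 was added to the members that rose (log2 fold change 0.72, adjusted p = 0.0408). Among the other named genes, Cdc25b lost its call there (adjusted p = 0.0507).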
